A study of Mus musculus with 149 samples.

Results

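Cyp2e1 and Cyp2f2, a pair of cytochrome P450 genes with opposite places in the liver lobule, were followed through 149 single liver cells. They are 2 of the 20308 mouse genes in the deposited table, which also lists 92 spike-in RNAs, and were taken by name. All cells came from 1 wild-type male C57BL/6 mouse aged 8 weeks, whose liver was perfused through the portal vein and whose hepatocytes were enriched by slow spins. The cells were caught on Fluidigm C1 chips, microfluidic devices that trap single cells: 80 on a large chip with traps of 17 to 25 µm, 30 on a medium chip of 10 to 17 µm and 39 on a small chip of 5 to 10 µm. No cell received a treatment. Each chip is 1 sample of the same animal, so values are described over cells and no test between chips or cells was made.

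Blood crosses the liver lobule from the portal vein to the central vein, and hepatocytes along this path carry out different work, a division of labour called zonation. CYP2E1 is a P450 enzyme of hepatocytes around the central vein; it oxidises ethanol and turns acetaminophen into its toxic quinone imine. CYP2F2 is a P450 enzyme that is periportal in mouse liver and is known from mouse lung for activating naphthalene. Wnt signals from the central vein, which act through beta-catenin and TCF/LEF factors, raise pericentral genes such as Cyp2e1 and Glul and hold periportal genes down.

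Both genes lie on the plus strand of mouse chromosome 7, 113.63 Mb apart on mm10, Cyp2f2 at chr7:27119909-27133660 with 3 annotated transcripts and Cyp2e1 at chr7:140763739-140774987 with 4. Gm15883, an antisense gene, overlaps Cyp2f2; the strand setting of the counting is not given in the sources used here, so reads of Gm15883 and of Cyp2f2 cannot be told apart. The stretches around the start sites are shown because the pair took opposite levels in the same cells. They run from 250 bases before to 50 bases after the RefSeq start on GRCm38.p6, at chr7:140763569-140763868 for Cyp2e1 and chr7:27119705-27120004 for Cyp2f2. These RefSeq starts, 140763819 and 27119955, differ from the gene starts given above, and motif places are counted from the RefSeq starts. Capitals mark the motif matches named after the stretches.
Cyp2e1: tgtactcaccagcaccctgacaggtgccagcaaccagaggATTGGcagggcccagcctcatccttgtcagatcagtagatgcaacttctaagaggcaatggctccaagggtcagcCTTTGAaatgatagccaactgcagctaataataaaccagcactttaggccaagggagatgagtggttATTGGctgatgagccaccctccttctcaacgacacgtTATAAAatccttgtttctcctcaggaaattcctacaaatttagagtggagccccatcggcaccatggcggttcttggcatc
Cyp2f2: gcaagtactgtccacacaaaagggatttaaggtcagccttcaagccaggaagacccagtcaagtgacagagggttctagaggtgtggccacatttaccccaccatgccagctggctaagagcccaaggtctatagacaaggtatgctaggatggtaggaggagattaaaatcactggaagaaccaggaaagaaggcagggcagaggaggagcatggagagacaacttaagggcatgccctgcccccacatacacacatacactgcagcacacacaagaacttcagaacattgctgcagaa
Short motifs were searched on both strands with any overlap allowed. The Cyp2e1 stretch held a TCF/LEF core (CTTTGA) at base -135 from the start, present in 16.2% of 27025 mouse promoter stretches of the same length. It also held a TATA box (TATAAA) at base -31, present in 14.2% of them, and a CCAAT box read on the other strand as ATTGG at bases -210 and -68, present in 37.9%. The Cyp2f2 stretch held none of these. An HNF1 motif (GTTAAT, 7.20% of stretches) and an HNF4 motif (CAAAGT, 14.3%) were in neither stretch. A match to letters is a description, not a bound site, and a missing match says only that these letters were not in this window. GC content was 49.7% in the Cyp2e1 stretch and 50.3% in the Cyp2f2 stretch.

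The values are expected counts after normalisation, written to 2 decimals, and the number of reads behind them is unknown. Hepatocyte markers were present throughout: each cell of each chip had at least 7 of 10 hepatocyte markers (among them Alb, Ttr and Apoa1) at a value of 10 or more. The median cell of each chip had no endothelial, Kupffer, stellate or lymphocyte marker at that value, but single cells reached 12 of 12 endothelial markers in the large and small chips and 10 of 10 Kupffer cell and macrophage markers in the medium and small chips. The highest numbers in any cell were 4 of 10 stellate, 4 of 7 bile duct, 1 lymphocyte and 1 erythroid marker. In 6 cells the markers of another cell type summed higher than those of hepatocytes: cells 7 and 64 of the large chip and cell 39 of the small chip for endothelial markers, and cells 1 and 4 of the medium chip and cell 1 of the small chip for Kupffer cell and macrophage markers. Small-chip cell 1 had 3977 for the hepatocyte markers together and 99693 for the macrophage markers. Results that these 6 cells touch are also given without them, a choice made after seeing the values. The cells differed in the share of their summed value taken by spike-in RNA, which was 50% or more in 16 of 80 large-chip, 23 of 30 medium-chip and 27 of 39 small-chip cells. The summed value of a cell, spike-ins included, fell into separate ranges. It was under 2000000 in 57 large-chip, 4 medium-chip and 4 small-chip cells, called low-sum cells here, whose spike-in shares on the large chip were between 1.24% and 6.69%. It was above that limit, which was chosen after seeing the values, in the other 23, 26 and 35 cells, called high-sum cells. Low-sum cells of the large chip had a median of 7652 genes above 0, against 2953 in its cells with a spike-in share of 50% or more. Results are given for all cells and for the low-sum cells.

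Both genes were among the abundant transcripts of the large-chip cells. Cyp2e1 had a mean value of 4362, rank 46 of the 20308 mouse genes, and reached 1.63% of the summed mouse values of a single cell. Cyp2f2 had a mean of 2754, rank 71, and reached 0.510%. These ranks are not corrected for transcript length.

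Across the chips the pair differed in level and in how often it was at 0. On the large chip the lowest, median and highest values of Cyp2e1 were 3.78, 79 and 29793. On the medium chip they were 0, 6.41 and 12421, and on the small chip 0, 226 and 78633. Cyp2e1 was at 0 in 9 of 30 medium-chip cells and 1 of 39 small-chip cells, all of them with a spike-in share of 50% or more, and in none of 80 large-chip cells, which allows a share of up to 3.75% of such cells. For Cyp2f2 they were 0.35, 2788 and 7533 on the large chip, 6.03, 860 and 8969 on the medium chip, and 5.82, 295 and 10158 on the small chip. It was above 0 in all 149 cells, so a share of cells at 0 of up to 2.01% is allowed. The ranges of the chips overlapped for both genes, and trap size and chip run cannot be told apart. The smaller chips had more cells of high spike-in share, and the part of that share in the lower medians was not tested; below a 50% share, the large-, medium- and small-chip medians were 96.03, 15.2 and 276 for Cyp2e1 and 3753, 7130 and 4146 for Cyp2f2.

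A high level of both genes was less frequent in the large chip than in the small one, and no test between chips was made. At a value of 100 or more, 16 of 80 large-chip cells held both (20.0%, exact 95% interval 11.9 to 30.4%, counting error only). Cyp2e1 alone was at this level in 22 cells, Cyp2f2 alone in 41, and neither in 1. In the medium chip 4 of 30 cells held both, and in the small chip 15 of 39. Over the 3 chips, 35 of 149 cells held both, 34 Cyp2e1 alone, 76 Cyp2f2 alone and 4 neither, so that about as many cells held both as held Cyp2e1 alone. In the small chip it was the most frequent class, with 10 cells for Cyp2e1 alone and 12 for Cyp2f2 alone. Without the 6 cells of mixed markers, 14 of 78 large-chip, 4 of 28 medium-chip and 14 of 37 small-chip cells held both. At 1000 or more, 2 large-chip cells, no medium-chip cell and 1 small-chip cell held both. The count rested on the level asked for: at 10 or more, 56 of 80 large-chip cells (70%, 58.7 to 79.7%) held both, and above 0 all 80 did. In the large chip both genes were thus detected in each cell, and 2 of 80 held both at 1000 or more.

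**Figure D1:**
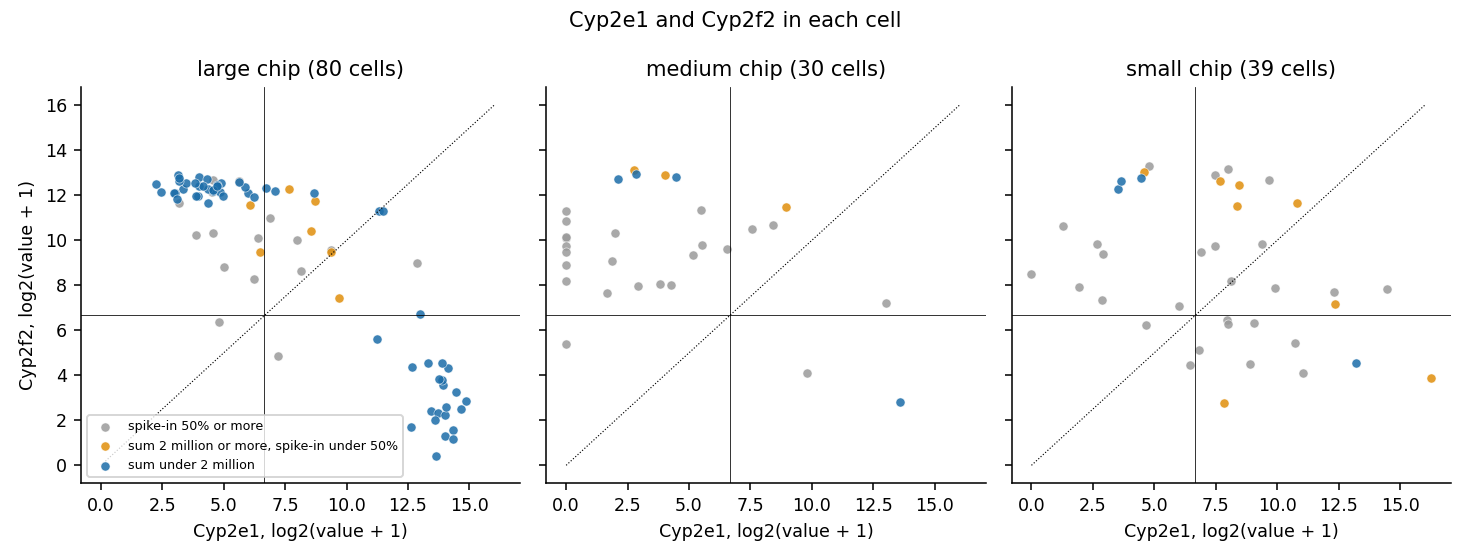
Each point is a cell, with log2(value + 1) of Cyp2e1 on the horizontal axis and of Cyp2f2 on the vertical axis, in 1 panel per chip; solid lines mark a value of 100, the dotted line marks equal values, and colours give the class of cell. Low-sum cells (sums under 2000000) of the large chip form a high-Cyp2f2 and a high-Cyp2e1 cloud with 2 cells on the dotted line between them, while many cells of high spike-in share lie between the clouds.

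The balance of the pair, log2(Cyp2e1 + 1) minus log2(Cyp2f2 + 1), shows how far each cell leaned to one side. It ran from -10.26 to 13.20 in the large chip. Cyp2e1 was the higher gene in 27 large-chip cells and Cyp2f2 in 53. Cyp2e1 exceeded Cyp2f2 by over 100-fold in 20 large-chip cells, and Cyp2f2 exceeded Cyp2e1 by over 100-fold in 31. The pair was within 10-fold of each other in 13 of 80 large-chip (16.2%, 8.95 to 26.2%), 4 of 30 medium-chip and 15 of 39 small-chip cells.

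Balanced cells were rare among low-sum cells. Among the low-sum cells, 2 of 65 were within 10-fold (3.08%, 0.375 to 10.7%). Among cells with a spike-in share of 50% or more, 22 of 66 were (33.3%, 22.2 to 46.01%). Chip and spike-in share were mixed in this contrast. Large-chip cells made up 57 of the 65 low-sum cells and 16 of the 66 cells with such a share. Within the large chip, 6 of 16 cells with such a share were balanced, against 7 of 64 below it. Within the small chip the counts were 13 of 27 against 2 of 12. Within the medium chip they were 3 of 23 against 1 of 7, so balanced cells were not more frequent at a high share there. In the 57 low-sum cells of the large chip the widest empty stretch of the balance ran from 0.18 to 5.65, with 35 cells below it and 22 above. The same split appeared in the few such cells of the smaller chips. Medium-chip cells 12, 13 and 15 had 3.35 to 20.8 for Cyp2e1 and 6843 to 7812 for Cyp2f2, and medium-chip cell 30 had 12421 for Cyp2e1 and 6.03 for Cyp2f2. Small-chip cells 14, 30 and 33 had 10.6 to 20.97 for Cyp2e1 and 5031 to 6897 for Cyp2f2, and small-chip cell 15 had 9495 for Cyp2e1 and 22.7 for Cyp2f2.

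**Figure D2:**
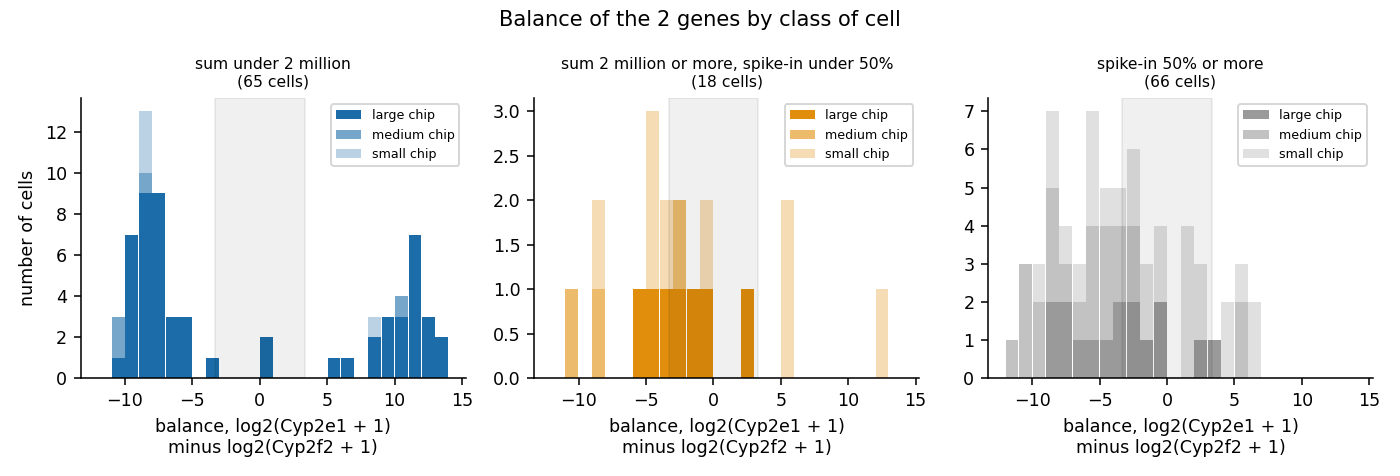
Histograms of the balance, with the number of cells on the vertical axis and 1 panel for each class of cell (65, 18 and 66 cells), shaded by chip; the grey band marks cells whose values were within 10-fold of each other. The band holds 2 of 65 low-sum cells and 22 of 66 cells with a spike-in share of 50% or more. Of the 83 cells below that share, the low-sum cells included, it holds 10.

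Of the 16 large-chip cells with both genes at 100 or more, 10 were high-sum cells and 5 had a spike-in share of 50% or more; Cyp2f2 was the higher gene in 11. Markers of liver endothelial cells stood out in some of them. Cells 7, 31 and 64 had all 12 endothelial markers at 10 or more, with Stab2, a scavenger receptor of sinusoidal endothelium, between 1417 and 3328. Cell 7 had 818 for Cyp2e1 and 170 for Cyp2f2, cell 31 had 7509 and 500, and cell 64 had 650 and 718. Cell 46, with 413 and 4425, had 9 of the 12 markers. The median number of endothelial markers was 0 both in the 16 cells and in the other large-chip cells, which had up to 10. In the small chip, cell 39 had 12 endothelial markers, with 5175 for Cyp2e1 and 144 for Cyp2f2. The part of endothelial RNA in the joint values of these cells was not tested.

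The other co-expressing high-sum cells of the large chip had at most 1 endothelial marker at 10 or more. Cell 41 had 659 for Cyp2e1 and 765 for Cyp2f2, with 1917 genes above 0. Cell 73 had 282 and 392.5, and cell 56 had 253 and 1034. Cell 15 had 117 and 2047 at a spike-in share of 76.3%. Cell 71, at a share of 36%, had 376 and 1377. Cells 24 and 53 leaned clearly to Cyp2f2, with 421 and 3458 in cell 24 and 202 and 4980 in cell 53. Of these 7 cells, 4 had a spike-in share of 50% or more, the highest being 85% in cell 73. Cells 24 and 71 carried the highest sums of bile duct markers of all 149 cells, 28186 with 4 of 7 markers at 10 or more in cell 24 and 41184 with 3 of 7 in cell 71, whose part in the joint values was not tested.

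Over the chips 3 cells held both genes at 1000 or more, and 2 of them were low-sum cells of the large chip. The third, small-chip cell 31, had 1792 for Cyp2e1 and 3260 for Cyp2f2 at a spike-in share of 42.2% with 4051 genes above 0. Large-chip cell 68 had 2572 for Cyp2e1 and 2529 for Cyp2f2, and cell 61 had 2887 and 2556. The spike-in shares of cells 68 and 61 were 2.14% and 3.65%, they had 8219 and 7523 genes above 0, and none of the 12 endothelial markers reached 10, with summed endothelial values of 0.86 and 2.40. The other landmark genes were mixed in these cells. Some lay between their medians at the ends of the order: Cyp1a2, a pericentral P450 that metabolises caffeine, had 187 in cell 68 and 348 in cell 61, and Hal, the periportal first enzyme of histidine breakdown, had 95.2 and 85.03. Others did not: Sds was at 0 in both cells, the median of the last 20 cells, and Asl had 203 and 258, above its median of 176 in the first 30. In cell 61 Ass1 had 1588, above its median of 1513 in the first 30, and Glul had 3.35, below its median of 5.02 there. Cyp2c29, another pericentral P450, differed widely between them, with 4.27 in cell 68 and 4989 in cell 61. In a score made from 10 landmark genes without Cyp2e1 and Cyp2f2 (5 pericentral and 5 periportal, within the chip), cell 68 ranked 55 and cell 61 ranked 46 of 80, counted from the periportal end. The values of Cyp2e1 and Cyp2f2 in cells 68 and 61 lay between the medians of each gene at the ends of the column order, which follow. The other 4 low-sum cells with both genes at 100 or more were cell 46 (413 for Cyp2e1 and 4425 for Cyp2f2), cell 40 (134 and 4724), cell 35 (105 and 5047) and cell 51 (8048 and 104). On the Cyp2e1 side the low-sum cell with the smallest balance after cells 68 and 61 was cell 78, at 5.65, with 2428 for Cyp2e1 and 47.3 for Cyp2f2.

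Over the whole large chip the pair opposed each other strongly, but within each end of the column order only weakly. The Spearman rho of Cyp2e1 with Cyp2f2 was -0.81 over 80 cells (Pearson r of log2 values -0.88), and -0.79 over the 57 low-sum cells. It was -0.80 after the number of genes above 0 was accounted for. Within the first 30 large-chip cells of the column order the rho of the pair was -0.28, and -0.10 in the 25 low-sum cells among them. Within the last 20 it was -0.11. The same rho was -0.067 over the 30 medium-chip cells and -0.34 over the 39 small-chip cells. Without the cells at a spike-in share of 50% or more it was -0.64 over 7 medium-chip cells and -0.66 over 12 small-chip cells. These are descriptions over cells that share an animal, a chip and a normalisation, and carry no test.

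Over the 80 large-chip cells no other gene tested opposed Cyp2e1 as strongly. Among 9650 genes above 0 in at least 20% of large-chip cells, Cyp2f2 had the lowest rho with Cyp2e1, ahead of Ctsc at -0.74. Cyp2e1 had the second lowest rho with Cyp2f2, where Cyp2c29 was lowest by a small margin. The comparison was also made among 36 pairs of a pericentral gene (Cyp2e1, Glul, Cyp1a2, Oat, Gulo, Slc1a2) with a periportal gene (Cyp2f2, Ass1, Asl, Hal, Sds, Pck1). All 36 pairs had a negative rho, from -0.81 to -0.046 with a median of -0.43. Cyp2e1 with Cyp2f2 was the lowest, followed by Cyp2e1 with Hal at -0.72. In the low-sum cells the pair took place 5 of 36, and Cyp1a2 with Pck1, the gluconeogenic enzyme PEPCK, was lowest at -0.85. There Cyp2e1 was opposed more strongly by Hal, at -0.84, than by Cyp2f2, at -0.79.

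**Figure D3:**
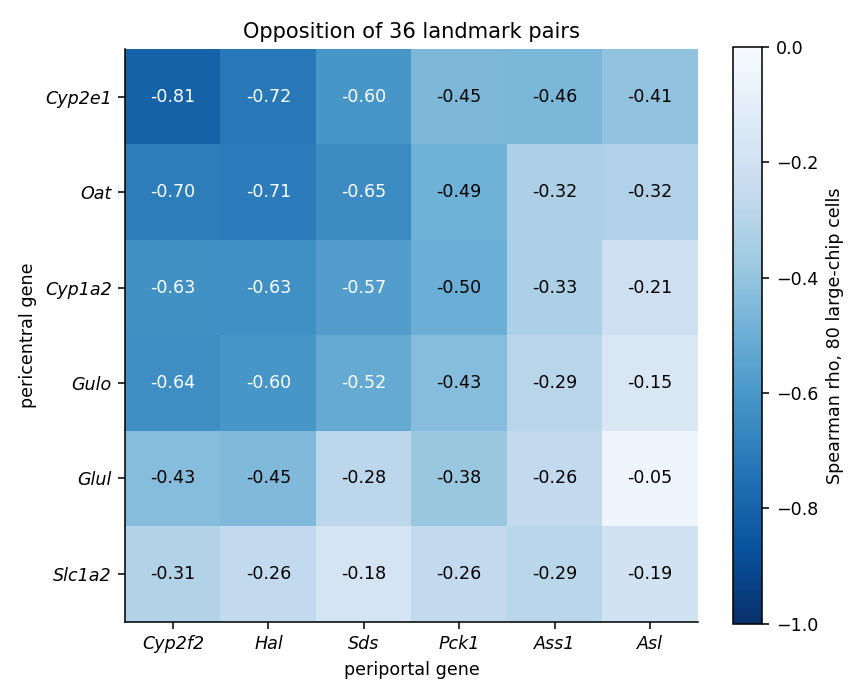
Spearman rho over 80 large-chip cells for each of 36 pairs, with pericentral genes in rows, periportal genes in columns and darker blue for a more negative rho. The cell of Cyp2e1 and Cyp2f2 is the darkest at -0.81, and the columns of Cyp2f2 and Hal are darker than those of Ass1 and Asl, except that Slc1a2 had -0.29 with Ass1 and -0.26 with Hal.

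The columns of the deposited table follow an order of cells in which Cyp2f2 is high at the start and Cyp2e1 at the end. The name of the table mentions WaveCrest, a method that orders cells from chosen genes, and the genes used are not given in the sources used here. Cyp2e1 and Cyp2f2 may have been among them, so their change along the order is a description. In the large chip, rho with place in the order was 0.86 for Cyp2e1 and -0.81 for Cyp2f2. In the medium chip it was 0.32 and -0.66, and in the small chip 0.58 and -0.72. The score of 10 other landmarks, in which neither gene took part, gave 0.78 and -0.82 on the large chip, 0.081 and -0.63 on the medium chip and 0.42 and -0.62 on the small chip. The order and the score had a rho of 0.92 with each other in the large chip.

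In consecutive groups of 10 large-chip cells along the column order, the medians of Cyp2e1 were 14.8, 21.1, 22.3, 52.7, 74.1, 1623, 13819 and 18718. The medians of Cyp2f2 in the same groups were 4801, 4789, 4852, 4905, 1122, 609, 11.9 and 3.92. Cyp2f2 thus held a plateau through the first 4 groups while the median of Cyp2e1 rose slowly, and both changed by more than 10-fold between the fifth and the seventh group. The Cyp2e1 median of group 4 rests partly on high-sum cells. Its 5 low-sum cells had 13.4, 22.7, 25.3, 56.7 and 104.8 for Cyp2e1. Cyp2e1 was the higher gene in none of the cells of groups 1 to 4, in 1 cell of group 5, in 6 of group 6 and in all 10 of groups 7 and 8. Cells of high spike-in share were unevenly placed: groups 1 to 8 held 0, 2, 0, 3, 8, 3, 0 and 0 of them, so the fifth group rests almost wholly on such cells.

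In 3 consecutive parts of the small chip (13 cells each), the medians of Cyp2e1 were 22.96, 226 and 471 and those of Cyp2f2 were 5031, 239 and 76.97. In 3 parts of the medium chip (10 cells each), Cyp2e1 had 5.96, 1.08 and 103, and Cyp2f2 had 2080, 860 and 262. Cyp2f2 went down through all parts of both smaller chips, and Cyp2e1 went up through the small chip but not from the first to the second part of the medium chip.

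**Figure D4:**
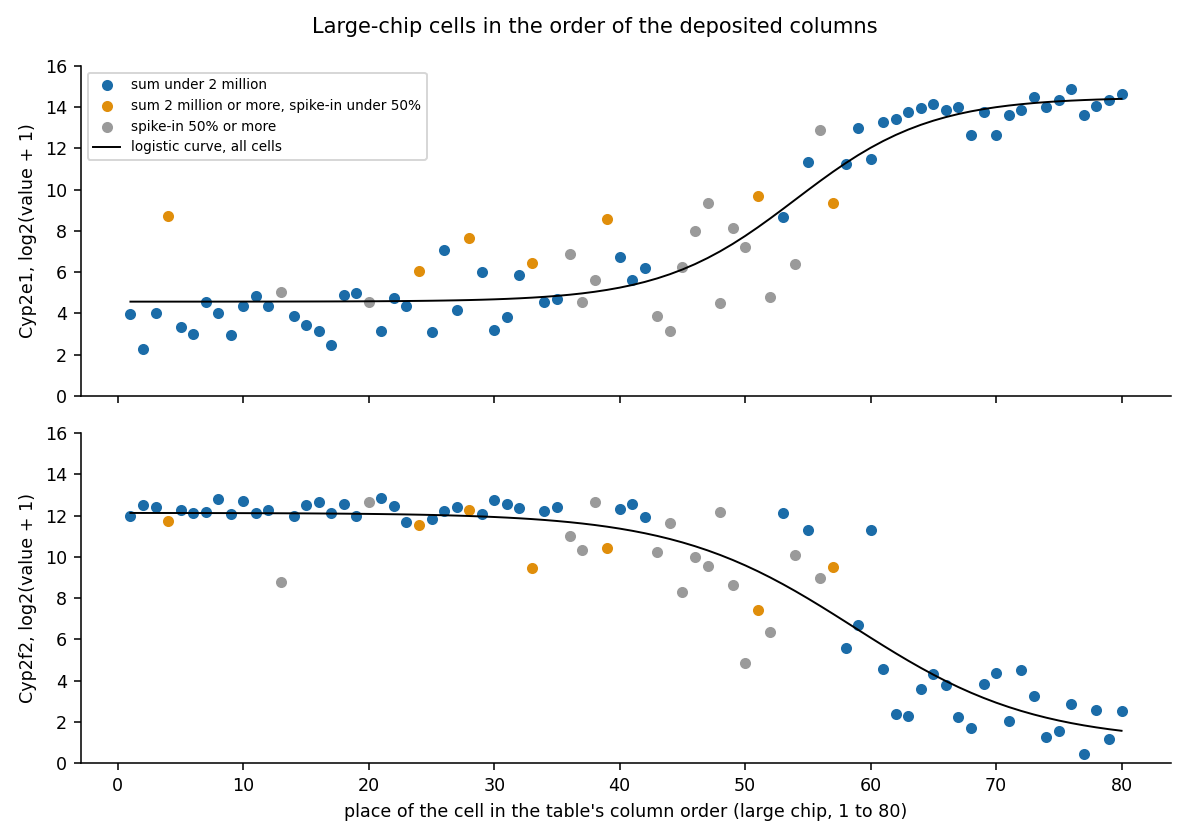
Value of Cyp2e1 (top) and Cyp2f2 (bottom) as log2(value + 1) against place in the column order of the table for the 80 large-chip cells, coloured by class of cell, with the logistic curve over all cells. Cyp2f2 stays near 12 up to place 53 in low-sum cells and is under 5 from place 61 on, while Cyp2e1 is above 12 from place 61 on.

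The ends of the order differed widely in both genes, although 3 of the first 30 cells (24, 40 and 53) held Cyp2e1 at 100 or more beside high Cyp2f2. In the last 20 large-chip cells Cyp2e1 had a lowest value of 6348, a median of 15360 and a highest of 29793, against a lowest of 3.78, a median of 18.1 and a highest of 421 in the first 30. The ratio of the medians was 851. Cyp2f2 had a lowest of 0.35, a median of 4.92 and a highest of 22.6 in the last 20 cells, against 448, 4842 and 7533 in the first 30. The ratio of the first 30 over the last 20 was 984. Neither gene overlapped between the ends, whose cells were placed by an order that may have used them; the sizes of the ends were chosen after seeing the values.

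The level left at the low end differed widely among zonated genes. Cyp2e1 kept 0.118% of its high-end median at the opposite end and Cyp2f2 kept 0.102%. Cyp1a2 kept 0.0758%, Cyp2c29 kept 0.0363% and Hal kept 0.133%. Oat, Gulo and Sds had a median of 0 at their low end. Glul, the glutamine synthetase of the last cells before the central vein, kept 6.95%. Its high-end median was only 72.3, while single cells of group 8 reached 5018, so this share depends on where the high end is cut. The urea cycle enzymes argininosuccinate synthase and lyase, Ass1 and Asl, kept 35.3% and 29.2%, and Pck1 kept 43.9%. Like Ass1, Asl and Pck1, Cyp2e1 and Cyp2f2 were above 0 in each cell of their low end, 30 of 30 and 20 of 20. Cyp1a2 was at 0 in 13 of 30 and Hal in 6 of 20. Their high-end medians were lower, 725 and 600 against 15360 for Cyp2e1 and 4842 for Cyp2f2. Similar shares thus left Cyp1a2 and Hal at low-end medians of 0.55 and 0.795, so the zeros cannot be told apart from lower abundance. Within the last 20 cells Cyp2e1 still had a rho of 0.57 with place and Cyp2f2 a rho of -0.43. Within the first 30 the rho was 0.29 for Cyp2e1 and 0.048 for Cyp2f2.

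The switch was orderly in the low-sum cells. Along the column order, Cyp2f2 was the higher gene in the first 33 of 57 large-chip cells and Cyp2e1 in the last 24, with no exception. Along the landmark score, made without both genes, the same split after 33 cells was found, also with no exception. The balanced cells 61 and 68 counted on the Cyp2e1 side with a balance of 0.18 and 0.02, so their side rests on a small difference. When all 80 cells were ordered, the first cell with more Cyp2e1 was at place 50 and the last with more Cyp2f2 at place 57 of the column order. Along the score these places were 46 and 73, and the cell at place 73 was cell 64, which carried all 12 endothelial markers.

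On the log2 scale the fitted midpoint of Cyp2f2 came later in the order than that of Cyp2e1. Levels as deposited need not give the same order. Between groups 4 and 5 the median of Cyp2f2 fell from 4905 to 1122, while that of Cyp2e1 went from 52.7 to 74.1. Group 5 held 8 cells of high spike-in share. A logistic curve through log2(value + 1) of the 57 low-sum cells put the midpoint of Cyp2e1 at place 33.1 and that of Cyp2f2 at 36.3 along the column order. Along the score the midpoints were 33.01 and 36.04. Over all 80 cells they were 54.01 and 58.7 along the column order, and 53.9 and 55.1 along the score. The midpoint of Cyp2f2 was later in each of these 4 fits, and the distance between midpoints was 1.26 to 4.69 cells. No error was put on a midpoint, since cells of 1 animal are not replicates.

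The steepness of the change depended on which cells were used. The stretch from 10% to 90% of the change took 8.21 of the 57 low-sum cells for Cyp2e1 and 7.66 for Cyp2f2 (14.4% and 13.4% of the cells). Over all 80 cells it took 23.6 and 31.5 cells (29.5% and 39.4%). Along the score, the stretch in the 57 cells was 5.55 cells for Cyp2e1 and 4.71 for Cyp2f2. The fitted levels in the 57 cells ran between 4.02 and 13.94 on the log2 scale for Cyp2e1 and between 12.37 and 2.53 for Cyp2f2. Places are ranks of cells, not distances in tissue, so a narrow stretch means only that few cells of the set used were intermediate. Groups 1 to 8 of the column order held 9, 8, 8, 5, 2, 5, 10 and 10 low-sum cells. The low-sum set was thus thinnest around the switch, and it held 2 of the 13 large-chip cells with the pair within 10-fold. How far this choice of cells narrowed the stretch was not tested.

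Other landmarks gave a scale for these widths in the same 57 cells. Along the column order both levels of the curve were reached in 9 of the 12 landmark genes, Cyp2e1 and Cyp2f2 included. Sds, the periportal serine dehydratase, was narrower with 4.36 cells, as were Slc1a2, a glutamate transporter of the last pericentral cells, with 6.46 and Gulo, the last enzyme of vitamin C synthesis in mouse, with 6.77. Hal took 9.93 cells, Cyp1a2 13.97, Asl 18.5 and Oat, ornithine aminotransferase, 20.1. Cyp2e1 and Cyp2f2 were thus neither the narrowest nor the broadest along this order. Widths of single landmarks depended on the order used. Along the score Asl took 0.44 cells, Gulo 2.78, Sds 5.52, Hal 7.41, Cyp1a2 17.1 and Oat 20.3, and Slc1a2 did not reach both levels. Along the column order Slc1a2 had its midpoint at place 52.6, far later than the 33.1 of Cyp2e1, and Sds at 31.7, earlier than the 36.3 of Cyp2f2.

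The genes most like Cyp2e1 over the 80 large-chip cells were largely other P450 genes and secreted proteins. By Spearman rho, among genes with a mean above that of the median gene, they were Cyp2c29 (0.85), Cyp2c50 (0.82), Mup15 (0.79), Cyp2c37 (0.79), Oat (0.78), Lect2 (0.77), Cyp2c54 (0.77) and Cyp7a1 (0.77). Cyp7a1 encodes the enzyme that limits the rate of bile acid synthesis, Mup15 a major urinary protein and Lect2 a secreted chemotactic protein. Mup15 had a median of 90091 in the last 20 cells and 0 in the first 30, and Cyp2c29 had 5779 and 2.10. The Cyp2c and Mup families have near-identical copies, so the level of a single copy is uncertain.

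The genes most like Cyp2f2 included enzymes of amino acid metabolism. Those described here were Hal (0.79), Hsd17b13 (0.76), Ctsc (0.73), Etnppl (0.73), Fga (0.71), Hrsp12 (0.67) and Cdh1 (0.67). Hsd17b13 is a lipid droplet protein, Ctsc the protease cathepsin C, Fga the fibrinogen alpha chain and Cdh1 the cell adhesion protein E-cadherin. Ctsc had a median of 0 in the last 20 cells and 268 in the first 30, while Fga, with 3895 and 9033, changed by a much smaller ratio. A rho of 0.7 or more was reached by 21 genes with Cyp2e1 and by 5 genes with Cyp2f2. In the low-sum cells, 4 of the leading 8 of Cyp2e1 and 3 of those of Cyp2f2 stayed among the leading 8.

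Every other gene was then set against the balance of the pair, counting a gene on the pericentral side at a rho of 0.3 or more and on the periportal side at -0.3 or less, a rule of size with no test. Of 9648 genes, 212 (2.2%) were on the pericentral side and 324 (3.36%) on the periportal side, and the median rho of all genes was -0.0010. The 4 pericentral landmarks that were above 0 in enough cells were all on the pericentral side with a median of 0.70, and the 5 periportal landmarks were all on the periportal side with a median of -0.54. Of 23 further pericentral genes, 21 were on the pericentral side and none on the periportal side, with a median of 0.65. Of 20 further periportal genes, 19 were on the periportal side and none on the other, with a median of -0.57; Cps1, the urea cycle entry enzyme, had -0.14. Below a spike-in share of 50%, 333 genes (3.45%) were pericentral and 590 (6.12%) periportal, and in the low-sum cells 475 (4.92%) and 717 (7.43%). In both of these sets of cells all 23 further pericentral genes were on the pericentral side, and 19 of 20 further periportal genes stayed on theirs. The lists of pericentral and periportal genes were drawn up with earlier results known and support nothing by themselves.

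**Figure D5:**
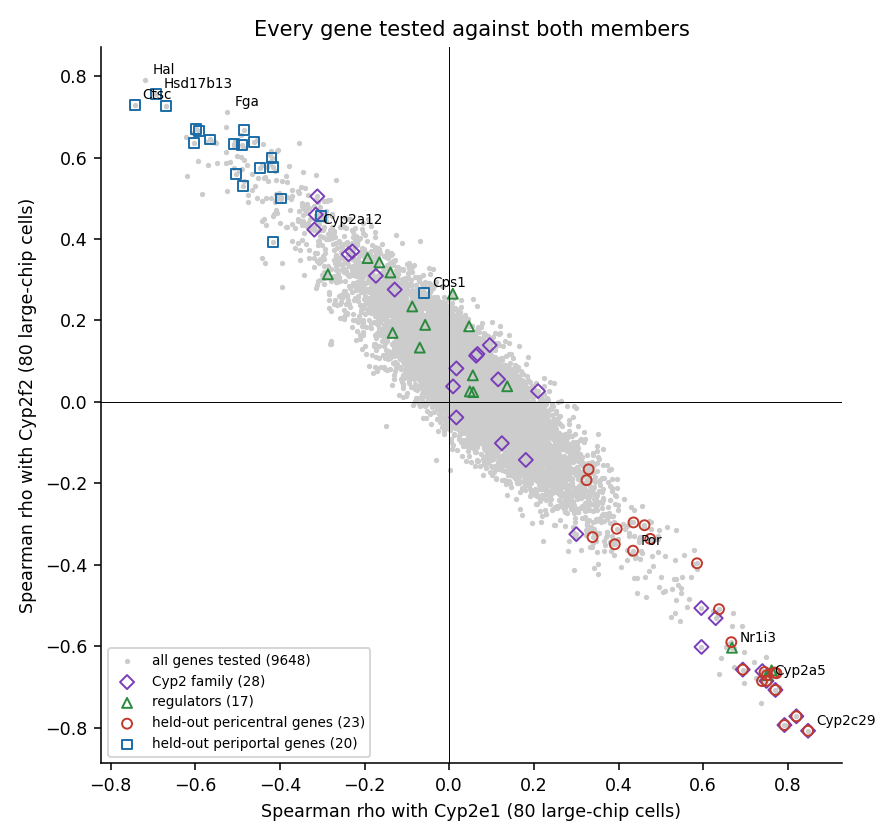
Each point is a gene, with its Spearman rho with Cyp2e1 on the horizontal axis and with Cyp2f2 on the vertical axis over 80 large-chip cells; symbols mark the lists and some genes are named. The cloud runs from Hal at the top left (0.79 with Cyp2f2) to Cyp2c29 at the bottom right (0.85 with Cyp2e1), most genes lie near the middle, and Cyp2 family genes are found at both ends.

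Membership of the Cyp2 family did not fix the side. Of 28 other Cyp2 genes, 10 were on the pericentral side, 5 on the periportal side and 13 on neither, with a median of 0.082. Over all 9648 genes, 2.2% were on the pericentral side, 3.36% on the periportal side and 9112 genes on neither. The pericentral ones were Cyp2a5 and 9 Cyp2c genes, led by Cyp2c29 at 0.87. The periportal ones were Cyp2d26 (-0.42), Cyp2a12 (-0.40), Cyp2a22 (-0.40), Cyp2d10 (-0.34) and Cyp2u1 (-0.31).

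Genome neighbours were not all on the side of the gene they lie beside. Of the 5 nearest genes on each side of both genes, 8 of 20 were above 0 in enough cells. Of these 8, 1 was on the pericentral side, 2 on the periportal side and 5 on neither. The shares over all genes were 2.2% and 3.36%. Beside Cyp2f2 lie the Cyp2a genes: Cyp2a5, the coumarin 7-hydroxylase of mouse liver, was on the pericentral side (0.74), opposite to Cyp2f2, with a median of 67.8 in the last 20 cells and 0 in the first 30. Cyp2a12, 83.1 kb away, and Cyp2a22 were on the periportal side, with Cyp2a12 at 155 in the last 20 cells and 493 in the first 30. On the other side of Cyp2f2, Egln2 (-0.086), Rab4b (-0.10) and Snrpa (-0.067) were on neither side. Beside Cyp2e1, Urah, an enzyme of urate breakdown, had -0.17 and Zfp941 had 0.052, and the 5 olfactory receptor genes before it, as well as Syce1 2.24 kb after it, were listed at 0 in all 80 large-chip cells.

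Partners of the P450 enzymes were mostly on neither side, which held for 9112 of all 9648 genes. Of 10 genes for electron donors and haem enzymes, 1 was on the pericentral side, 1 on the periportal side and 8 on neither, with a median of 0.020. The shares over all genes were 2.2% and 3.36%. In the low-sum cells 2 of the 10 were pericentral, against 4.92% of all genes. Alad, the second enzyme of haem synthesis, had 0.44 there and 0.27 over all cells. Por, the reductase that passes electrons to P450 enzymes, had a rho of 0.41 and a median of 37.1 in the last 20 cells against 4.50 in the first 30. Cyb5r3, the reductase of cytochrome b5, had -0.31, with 379 and 591. Alas1, which starts haem synthesis, had -0.026.

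Other genes of ethanol oxidation were mostly on neither side, as were 9112 of all 9648 genes. Of 7 genes, 1 was pericentral, 1 periportal and 5 neither, with a median of -0.15. The shares over all genes were 2.2% and 3.36%. Aldh1a1, a cytosolic aldehyde dehydrogenase, had 0.51, with medians of 1723 in the last 20 cells and 311 in the first 30. Aldh1b1, a mitochondrial one, had -0.43, with 0 and 11.8. Adh1, the main alcohol dehydrogenase, had -0.089 (3150 and 2918), and Cat, catalase, had -0.24 (3094 and 3582). The Cyp2e1 medians at these ends were 15360 and 18.1.

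Among 17 regulators, 3 were on the pericentral side, 1 on the periportal side and 13 on neither, with a median of -0.087. The shares over all genes were 2.2% and 3.36%, with 9112 of 9648 on neither side. Ahr, the aryl hydrocarbon receptor, had 0.74, with a median of 113 in the last 20 cells and 0.64 in the first 30. Tbx3, a beta-catenin target and transcription factor, had 0.73 (59.1 and 0). Nr1i3, the xenobiotic receptor CAR, had 0.66 (50.3 and 0). Tcf7l1, a factor of the TCF family, was the periportal one at -0.31, with a median of 0 in the last 20 cells and 1.74 in the first 30. Ctnnb1, the gene of beta-catenin, had 0.076, and Hnf4a, a main hepatocyte factor, had -0.17. In the low-sum cells, as below a spike-in share of 50%, 4 regulators were on the periportal side: Tcf7l1 had -0.43 in the low-sum cells, Cebpa -0.38, Foxa3 -0.35 and Tcf7l2 -0.33. The periportal share of all genes was 7.43% in the low-sum cells and 6.12% below that spike-in share.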

How the data were processed

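RNA of 149 single cells of 1 mouse was measured on 3 chips, each treated as 1 sample. The authors deposited a normalised signal: per the submitters' processing notes, which name CASAVA 1.8.2, Bowtie 0.12.9, RSEM 1.2.3 and the build mm10 without order, the values derive from expected counts. SCnorm, a normalisation for single cells, and WaveCrest are mentioned in the table's name only. Read depth is unknown, so intervals on shares of cells (exact Clopper-Pearson, 95%) and the limit for a count of 0 (3 counts) cover counting error only. All columns were used.

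Values were analysed as log2(value + 1) for curves, the balance and the score, and as deposited for levels. The landmark score is the mean z within a chip of Glul, Cyp1a2, Oat, Gulo and Slc1a2 minus that of Ass1, Asl, Hal, Sds and Pck1. Genes above 0 in at least 20% of large-chip cells received Spearman correlations. Logistic curves were fitted by least squares and checked on simulated data. Named genes were the landmarks, the 8 genes most like each member, up to 4 per list with the largest rho in size, and tested genome neighbours; others were named after their values were seen, as were marker genes, and 1 gene of the rule is not reported here. The genes and lists were chosen with earlier results of these data known. No test was run, because cells of 1 animal are not replicates. Alternatives were other limits, pseudocounts, correlations and filters, rescaled cells, cells of lower spike-in share, cells with sums under 2000000, and the omission of 6 cells of mixed markers. No doublet caller was run. Tables were handled with pandas 2.3.3 and numpy 2.4.6, statistics with scipy 1.17.1 and figures with matplotlib 3.10.9, all in Python 3.11.15. Gene positions are from GENCODE, and neighbours and promoter stretches from RefSeq on GRCm38.p6.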

Additional observations from a re-analysis of the deposited data

How the results depend on the processing

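Of 129 alternative values for 31 results, 92 stayed close to the value reported, 37 moved and none changed sign. A rho counted as moved at a change of 0.1 or more, and a share of cells when outside its 95% interval. Other values counted as moved at a change of more than 1.5-fold. With only cells of a spike-in share under 50%, the medium-chip medians were 15.2 (Cyp2e1) and 7130 (Cyp2f2) and the small-chip median of Cyp2f2 was 4146. With those cells the rho of the pair was -0.64 in the medium and -0.66 in the small chip, and rho with the column order was 0.61 (Cyp2e1, medium), 0.87 (Cyp2e1, small) and -0.60 (Cyp2f2, small). Rescaling each cell to the median mouse sum of its chip gave a small-chip Cyp2f2 median of 581 and a rho of -0.19 (medium) and -0.55 (small). Given the number of genes above 0, rho was -0.26 (medium) and -0.46 (small), and Pearson r in the medium chip was -0.34. The share of cells holding both genes above 0 was 100% (large), 70% (medium) and 97.4% (small), and at 100 or more it was 20.0%, 13.3% and 38.5%; at 10 or more in cells with sums under 2000000 it was 25.0% (medium) and 100% (small).

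The width of the change was 17.4% of the cells for Cyp2f2 at a spike-in share under 50%. In these low-sum cells, an alternative chosen after seeing the data, widths were 14.4% (Cyp2e1) and 13.4% (Cyp2f2) along the column order and 9.73% and 8.26% along the score. Of the 8 genes most like Cyp2e1, 4 stayed in low-sum cells; of those most like Cyp2f2, 3 stayed there and 5 with Pearson r. All genes on the pericentral side numbered 333 (spike-in share under 50%) and 475 (low-sum cells), and on the periportal side 590 and 717; regulators on the periportal side numbered 4 in both. The pair took place 5 of 36 in low-sum cells. Without the 6 cells of mixed markers, also chosen after seeing the data, none of 29 values moved by these limits. The widths along the column order still fell, from 29.5% to 20.5% of the cells for Cyp2e1 and from 39.4% to 33.6% for Cyp2f2. The cause of these changes was not tested. No paired analysis was possible because the results come from no test and replicate numbers only name cells. Unknown depth limits values near 0, and 1 animal gives no spread between animals.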
